A study of Mus musculus with 9 samples.

Results

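Ketone bodies, acetoacetate and β-hydroxybutyrate, are fuels that the liver makes from fatty acids and that other tissues burn. Described here are 5 mouse genes of their handling in brown adipose tissue, Acat1, Oxct1, Aacs, Bdh1 and Bdh2, out of 49315 genes listed in the count files. They were chosen by symbol with the cotadutide against vehicle contrast already known, so their differences between the groups are given as a description, with no test. All 5 had enough counts to enter the fit over 14747 genes.

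The tissue came from male C57Bl/6J mice with diet-induced obesity, fed a diet labelled 60% high fat and not kept at thermoneutrality. The labels put the mice at 14 weeks of age, with 3 weeks of acclimation and feeding up to a body weight of about 50 g. Of the 9 mice, 5 received cotadutide, a peptide that activates the glucagon-like peptide and glucagon receptors, and 4 received vehicle, each by daily injection under the skin over 28 days. The dose is not given in the sources used here. Each mouse gave 1 library of polyadenylated RNA from 30 mg of tissue, read as whole-number counts per gene.

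In the mitochondrion, Bdh1 encodes the dehydrogenase that interconverts β-hydroxybutyrate and acetoacetate. Oxct1 encodes the transferase that activates acetoacetate with the coenzyme A of succinyl-CoA, the step that lets a tissue burn ketone bodies and that liver lacks. Acat1 encodes the mitochondrial thiolase that splits acetoacetyl-CoA into acetyl-CoA and that can also run towards synthesis. Aacs encodes a cytosolic ligase that activates acetoacetate for lipid and sterol synthesis, and Bdh2 encodes a cytosolic member of the short-chain dehydrogenase family. Synthesis of ketone bodies from acetyl-CoA is textbook biology of the fasted liver. Brown fat is known as a tissue that burns acetoacetate.

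Library totals were 15.91 ± 3.58 M counts with cotadutide (SD, n = 5, range 10.76 to 19.46) and 20.84 ± 4.05 M counts with vehicle (SD, n = 4, range 16.06 to 25.11; exact two-sided permutation p = 0.127), where M stands for 1000000. CPM are counts per 1000000 of the library total, after TMM scaling of that total. All 10 brown adipocyte markers were detected and 3 of them rose by edgeR, and their sum was 11546 to 16775 CPM with cotadutide and 8034 to 11973 CPM with vehicle. Ucp1 stood at 5886 ± 759 CPM with cotadutide and 4781 ± 961 CPM with vehicle; the defining markers of the labelled tissue were thus present. The summed CPM of 12 skeletal muscle genes ranged from 4683 to 17543 with cotadutide and from 20500 to 43811 with vehicle, so that the groups did not overlap, and 7 of the 12 fell by edgeR. The summed CPM of 8 macrophage genes ranged from 165.3 to 331.3 with cotadutide and from 259.4 to 450.3 with vehicle, and 6 of the 8 fell by edgeR. Fibroblast markers (0 of 6 past the threshold) spanned 431.3 to 939 CPM with cotadutide and 709.3 to 1164 CPM with vehicle, and endothelial markers (1 of 5 higher) 424.8 to 560.9 CPM with cotadutide and 410.9 to 503.1 CPM with vehicle. The sum of 4 white adipocyte markers was 114.3 to 374 CPM with cotadutide and 278.8 to 894.2 CPM with vehicle, and 3 of them fell by edgeR. The sum of 5 hepatocyte genes never passed 2.18 CPM, and Fgb was at 0 counts in every library. Over all genes tested, edgeR called 9.31% higher and 9.34% lower, and the groups did not overlap in 15.8%. In bulk tissue, fewer cells of a type and less RNA per cell cannot be told apart.

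Vehicle mouse 4 stood apart from the other vehicle mice. Its root mean square log2 distance to them was 0.401, against 0.291 to 0.312 for the others. The cotadutide mice were as far from each other, at 0.338 (mouse 4) to 0.407 (mouse 3). Cotadutide mouse 1 was nearly as close to the vehicle mice (0.391) as to its own group (0.373). It held the most muscle mRNA (43811 CPM, against at most 25316 CPM in the other vehicle mice) and the least white adipocyte marker mRNA of the vehicle mice (278.8 CPM, against at least 795.9 CPM). Its brown adipocyte marker sum, 11973 CPM, was the highest of the vehicle mice (8034 to 9423 CPM in the others). That sum lay inside the cotadutide range of 11546 to 16775 CPM. Results that rest on vehicle mouse 4 are given below with and without it. Without it edgeR called 3704 genes, against 2751 with all libraries. Without vehicle mouse 1 it called 139, and without vehicle mouse 2 it called 147.

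The 5 genes lie on 5 different chromosomes. In the mm10 coordinates of the files, Acat1 (ENSMUSG00000032047) spans 53580522 to 53610382 on chromosome 9 and Oxct1 (ENSMUSG00000022186) 4026383 to 4155344 on chromosome 15. Aacs (ENSMUSG00000029482) spans 125475814 to 125517410 on chromosome 5, Bdh1 (ENSMUSG00000046598) 31422280 to 31458901 on chromosome 16, and Bdh2 (ENSMUSG00000028167) 135281221 to 135304426 on chromosome 3. All are annotated as protein coding. Acat1, Aacs and Bdh2 shared no exon base with another gene. Exons of the antisense gene BC037032 covered 12.6% of the Oxct1 exon bases, and those of Gm15743 covered 14% of the Bdh1 exon bases. The strand setting of the counting is not given in the sources used here, so reads in those stretches could not be assigned to a strand. BC037032 was at 0.625 ± 0.19 CPM with cotadutide and 0.617 ± 0.244 CPM with vehicle (SD, n = 5 and 4), and Gm15743 at no more than 0.165 CPM in any library. In the transcript set of the annotation, 50-base stretches of Acat1 and Bdh2 occurred in no other gene, and 0.0511% of those of Aacs did. Of those of Oxct1 11.2% occurred in BC037032, and of those of Bdh1 11.1% occurred in Gm15743, on either strand.

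Of these genes, Aacs and Oxct1 had higher values with cotadutide, as did Acat1, and Bdh1 and Bdh2 had lower ones. The sequences before the start are shown for 4 of the genes, since the source of these sequences had no entry for Acat1. They are from RefSeq, build GRCm38.p6, on the plus strand, and each runs 5′ to 3′ from 250 bases before the RefSeq start up to the base before the first exon in the count files. Capitals mark CpG dinucleotides. The Oxct1 stretch also holds exon bases of the antisense gene BC037032.
Aacs, chr5:125475623-125475813: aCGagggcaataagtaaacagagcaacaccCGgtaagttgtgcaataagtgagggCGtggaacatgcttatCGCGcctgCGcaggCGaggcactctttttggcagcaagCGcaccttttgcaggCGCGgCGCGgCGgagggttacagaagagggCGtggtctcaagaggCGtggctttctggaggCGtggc
Oxct1, chr15:4026178-4026382: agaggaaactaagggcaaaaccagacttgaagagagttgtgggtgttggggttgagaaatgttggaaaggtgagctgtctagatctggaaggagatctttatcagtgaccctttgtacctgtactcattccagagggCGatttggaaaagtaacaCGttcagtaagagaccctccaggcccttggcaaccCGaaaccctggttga
Bdh1, chr16:31422047-31422279: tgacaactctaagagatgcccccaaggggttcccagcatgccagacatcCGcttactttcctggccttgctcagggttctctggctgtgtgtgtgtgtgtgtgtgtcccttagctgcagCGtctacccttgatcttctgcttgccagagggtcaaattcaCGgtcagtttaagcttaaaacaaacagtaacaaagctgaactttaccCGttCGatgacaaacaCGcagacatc
Bdh2, chr3:135280971-135281220: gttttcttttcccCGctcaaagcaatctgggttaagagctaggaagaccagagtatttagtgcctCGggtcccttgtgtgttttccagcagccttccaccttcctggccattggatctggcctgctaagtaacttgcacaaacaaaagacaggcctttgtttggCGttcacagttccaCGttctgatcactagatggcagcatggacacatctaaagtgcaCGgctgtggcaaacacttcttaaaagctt

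The Aacs stretch is the one rich in CpG, with 16 in its 191 bases, against 3 in the 205 bases of Oxct1, 6 in the 233 bases of Bdh1 and 5 in the 250 bases of Bdh2. Over the full 250 bases before each RefSeq start, Aacs held 22 CpG, and 86.7% of the 32851 RefSeq windows of that length held as many or fewer (median 6). The same count was 6 for Oxct1, 7 at the first start of Bdh1, 9 at its second start and 5 for Bdh2. A search of both strands of these 5 windows for 8 motifs found 1 match, ATTGG on the plus strand of Bdh2, which is the CCAAT box read on the other strand and lies 141 to 137 bases before the start. CCAAT was present in 33.8% of all windows. The nuclear receptor half-site AGGTCA (14% of all windows), its extended form TCAAGGTCA (0.387%, each of which also holds AGGTCA), the sterol element TCACNCCAC (1.05%), CACGTG (6.02%), TGACGTCA (1.55%), its part TGACG (17.8%) and GGGCGG (32.7%) had no match in the 5 windows. A match is a string of letters and not a shown binding site.

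Brown fat carried far more mRNA for burning and activating acetoacetate than for either dehydrogenase. Per kilobase of the exon length in the files, the level of Acat1 was 273 ± 22.1 CPM per kilobase with cotadutide and 238 ± 11.5 with vehicle (SD, n = 5 and 4). Oxct1 followed at 107 ± 9.91 CPM per kilobase with cotadutide and 83.7 ± 13.2 with vehicle, and Aacs at 51.1 ± 5.25 with cotadutide and 35.1 ± 4.02 with vehicle. Bdh1 was at 0.748 ± 0.389 CPM per kilobase with cotadutide and 1.47 ± 0.238 with vehicle, and Bdh2 at 0.112 ± 0.0594 with cotadutide and 0.174 ± 0.0579 with vehicle. The order of these levels was the same in all 9 libraries, with no overlap of neighbours within a library. The median ratio within a library was 2.69 for Acat1 over Oxct1, 2.12 for Oxct1 over Aacs, 36.7 for Aacs over Bdh1 and 8.8 for Bdh1 over Bdh2. The exon length of Bdh2 in the files, 4250 bases, exceeds its longest coding transcript in the annotation, 1172 bases. With the length of the longest coding transcript, a choice made after seeing the data, the ratio of Bdh1 over Bdh2 was 2.95 and the order was kept.

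In the contrast, the 3 abundant genes had higher values with cotadutide and the 2 dehydrogenases lower ones. At a Benjamini-Hochberg adjusted p of 0.05 in edgeR's quasi-likelihood fit, 2 of the 5 were past the threshold, Aacs higher and Bdh1 lower. Bdh1 was only just past it, with groups that overlapped. Over all 14747 genes tested 18.7% were past it, 9.31% higher and 9.34% lower, and since this contrast was known when the genes were chosen, nothing is read from that count. Only Aacs had groups that did not overlap, as did 15.8% of all genes tested (8.06% with cotadutide higher and 7.79% with it lower). The median log2 fold change of the 5 was 0.20, against 0.00315 over all genes tested.

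**Figure D1:**
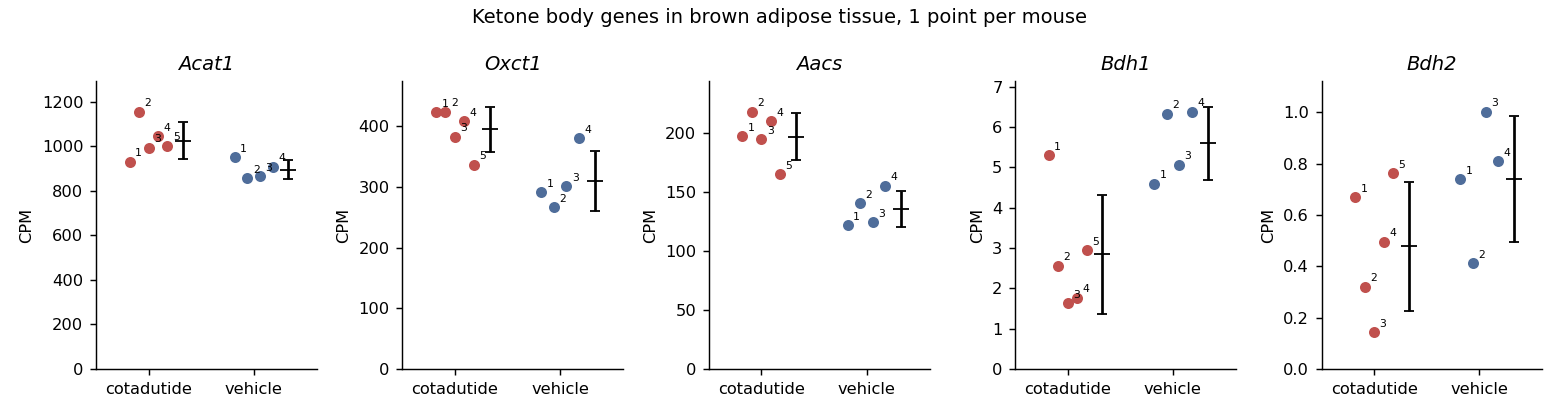
CPM of the 5 genes (y axes, each starting at 0) in each mouse, cotadutide left and vehicle right, with the mouse number beside each point and the mean and SD as a bar. Aacs values of the 5 cotadutide mice, 165 to 218 CPM, all lie above the 155 CPM of the highest vehicle mouse, whereas the other genes overlap between the groups.

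Acat1, the thiolase, was among the abundant mRNAs, with 10545 to 24454 counts per library. Its level was 932, 1156, 995, 1046 and 1004 CPM in cotadutide mice 1 to 5, against 951, 857, 866 and 909 CPM in vehicle mice 1 to 4. All cotadutide mice but mouse 1 lay above the highest vehicle mouse, and mouse 1 fell between vehicle mice 4 and 1. Acat1 averaged 1026 ± 82.9 CPM with cotadutide and 896 ± 43.3 CPM with vehicle, a difference of 0.20 on the log2 scale (SE 0.089) or 1.15-fold. Without vehicle mouse 4 the log2 fold change was also 0.20.

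Oxct1, the transferase of ketone body use, had 423, 423, 382, 408 and 336 CPM in cotadutide mice 1 to 5, against 291, 267, 301 and 380 CPM in vehicle mice 1 to 4. Vehicle mouse 4 lay inside the cotadutide range, and the other vehicle mice lay below every cotadutide mouse. The means were 395 ± 36.7 CPM with cotadutide and 310 ± 49 CPM with vehicle, with a log2 fold change of 0.35 (SE 0.12), or 1.27-fold. Without vehicle mouse 4 the log2 fold change of Oxct1 was 0.46. Its level per kilobase relative to that of Acat1 in the same library was 0.392 ± 0.0442 with cotadutide and 0.351 ± 0.0521 with vehicle, and those ranges overlapped (0.34 to 0.461 with cotadutide, 0.311 to 0.424 with vehicle).

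Aacs, the cytosolic ligase, had the largest relative difference of the 3 abundant genes. It stood at 197, 218, 195, 210 and 165 CPM in cotadutide mice 1 to 5, against 122, 140, 124 and 155 CPM in vehicle mice 1 to 4. Aacs averaged 197 ± 20.2 CPM with cotadutide and 135 ± 15.5 CPM with vehicle, with a log2 fold change of 0.54 (SE 0.11), or 1.46-fold. The lowest cotadutide mouse, mouse 5, and the highest vehicle mouse, mouse 4, were the nearest pair. Its log2 fold change was 0.61 without vehicle mouse 4.

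Bdh1, the mitochondrial dehydrogenase, was a scarce mRNA with 23 to 154 counts per library. It stood at 5.30, 2.56, 1.64, 1.76 and 2.95 CPM in cotadutide mice 1 to 5, against 4.59, 6.33, 5.07 and 6.37 CPM in vehicle mice 1 to 4. Cotadutide mouse 1 lay within the vehicle range, and the other cotadutide mice lay below it. The means were 2.84 ± 1.48 CPM with cotadutide and 5.59 ± 0.902 CPM with vehicle, so that values were 1.94 times lower with cotadutide (log2 fold change -0.96, SE 0.30). Without cotadutide mouse 1 the log2 fold change was -1.37, and without vehicle mouse 4 it was -0.89. The spread among cotadutide mice, a coefficient of variation of 52%, was the widest of the 4 better-counted genes, against 16.1% among vehicle mice.

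Bdh2 was near the limit of what was counted, with 2 to 19 counts per library. It had 0.669, 0.321, 0.142, 0.495 and 0.762 CPM in cotadutide mice 1 to 5, against 0.739, 0.411, 1.00 and 0.810 CPM in vehicle mice 1 to 4, and the groups overlapped widely. Over the group totals it had 37 counts with cotadutide, 0.465 CPM of the unscaled totals (exact Poisson 95% interval 0.328 to 0.641), and 61 counts with vehicle, 0.732 CPM of the unscaled totals (0.56 to 0.94). These intervals cover counting error only. Its log2 fold change was -0.61 (SE 0.41), and -0.56 without vehicle mouse 4.

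**Figure D2:**
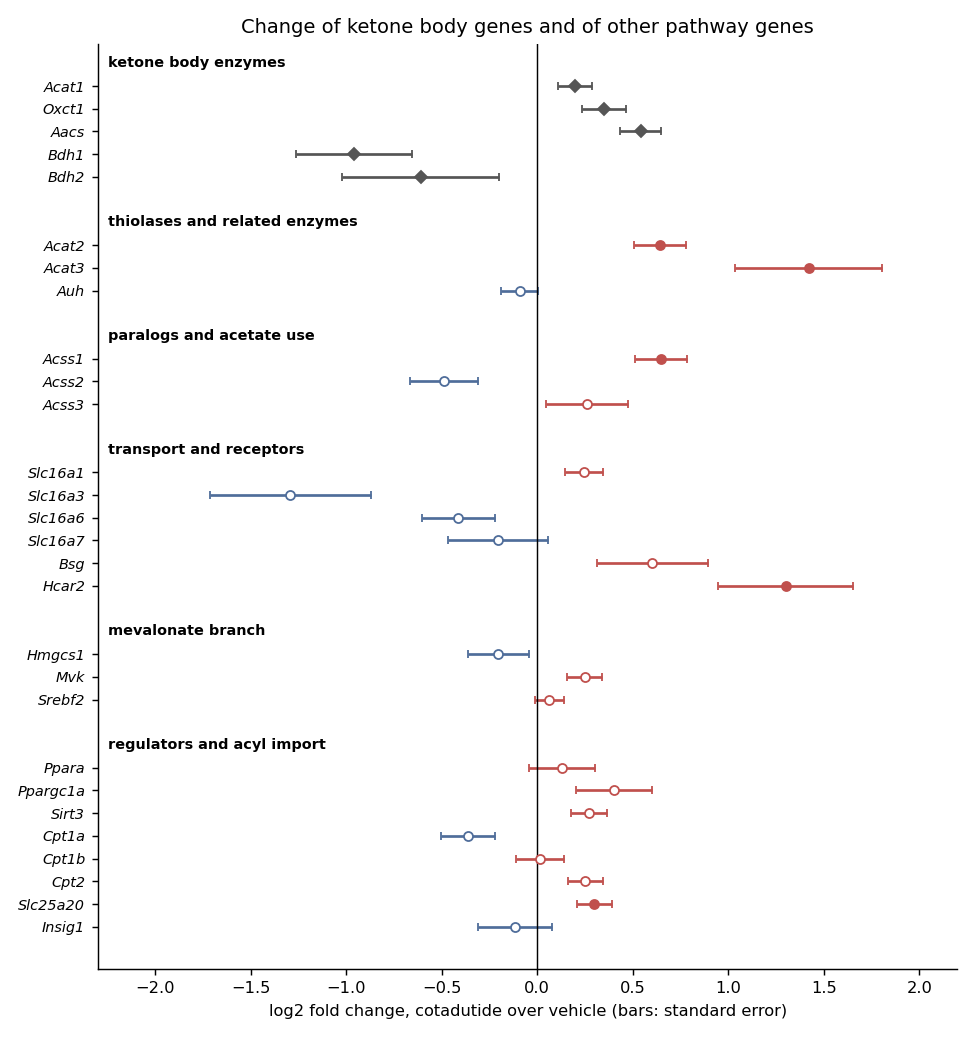
Log2 fold change of cotadutide over vehicle (x axis) with its standard error for the 5 ketone body enzymes (grey diamonds, no test) and for 23 other genes of the pathway (circles, red above 0 and blue below 0, filled where the edgeR adjusted p is under 0.05). Acat2, Acat3, Acss1, Hcar2 and Slc25a20 are the filled circles, all on the higher side.

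Among neighbouring genes, the thiolases Acat2 and Acat3, the acetate-activating enzyme Acss1, the receptor Hcar2 and the carrier Slc25a20 were higher with cotadutide. Of 29 further genes of the pathway, drawn up as 5 lists by function with the earlier results of these data known, 23 had enough counts for the test, 5 rose and 0 fell by edgeR, and 18 did not pass, with a median log2 fold change of 0.24 (0.00315 over all genes tested, of which 18.7% passed). At an unadjusted p under 0.05, 9 were higher and 3 lower, where 35.7% of all genes tested passed in either direction. DESeq2 called 6 higher and 2 lower (23% of all genes tested in either direction), and limma-voom called 5 higher and 0 lower (19.5%). In the list that holds the thiolases, 2 of the 3 tested genes rose, Acat2 and Acat3, which share sequence with each other (9.31% of all genes tested were called higher).

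Acat2, the cytosolic thiolase that supplies sterol synthesis, rose 1.56-fold, with 169 ± 29.3 CPM in cotadutide mice and 108 ± 16.9 CPM in vehicle mice (edgeR adjusted p = 0.0173). Its neighbour Acat3, at 2.23 ± 1.23 CPM with cotadutide and 0.825 ± 0.208 CPM with vehicle, rose 2.68-fold (edgeR adjusted p = 0.0298). Of the 50-base stretches of Acat3 transcripts 52.5% occur in another gene, as do 39.1% of those of Acat2, in both cases in each other and in Tcp1, so the split of their reads is uncertain. Auh, a hydratase of leucine breakdown, did not pass (155 ± 6.03 CPM with cotadutide and 165 ± 23.1 CPM with vehicle, edgeR adjusted p = 0.532). Hmgcll1 was not tested, with 8 counts over the cotadutide libraries and 7 over the vehicle libraries.

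**Figure D3:**
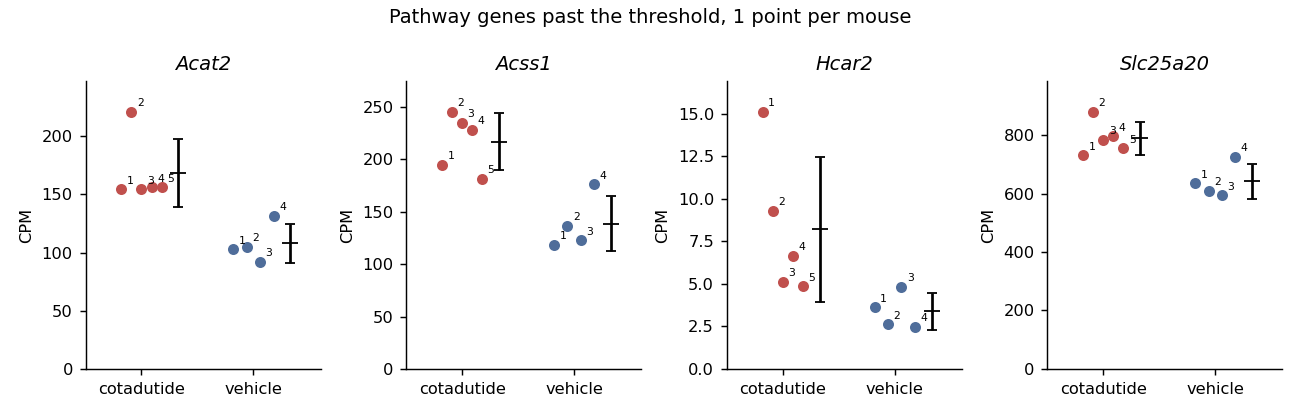
CPM (y axes, each starting at 0) of 4 of the 5 pathway genes past the edgeR threshold in each mouse, cotadutide left and vehicle right, with the mouse number beside each point and the mean and SD as a bar. In all 4 the groups do not overlap, and vehicle mouse 4 is the vehicle mouse nearest to the cotadutide mice for Acat2, Acss1 and Slc25a20.

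The paralogs of Oxct1 were close to absent: Oxct2a had 1 count over the cotadutide libraries and 0 over the vehicle libraries, where 0 counts allow up to 0.036 CPM, and Oxct2b had 9 counts over the cotadutide libraries and 7 over the vehicle libraries. Acss1, the mitochondrial enzyme that activates acetate, rose 1.57-fold, with 217 ± 27.4 CPM in cotadutide mice and 139 ± 26.3 CPM in vehicle mice (0.65 on the log2 scale, SE 0.13, edgeR adjusted p = 0.0165). Its cytosolic counterpart Acss2 did not pass, with 129 ± 16 CPM with cotadutide and 180 ± 50.8 CPM with vehicle (edgeR adjusted p = 0.0768), although leaving out vehicle mouse 4 gave a log2 fold change of -0.66 with an edgeR adjusted p of 0.00396, and it passed by DESeq2 (adjusted p = 0.0472). Acss3 did not pass (log2 fold change 0.26, edgeR adjusted p = 0.409).

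Ketone bodies enter cells through monocarboxylate transporters. Of 7 transport and receptor genes 6 were tested and 1 rose (9.31% of all genes tested were called higher). Hcar2, the receptor for β-hydroxybutyrate and niacin on fat and immune cells, had 15.1, 9.30, 5.12, 6.66 and 4.85 CPM in cotadutide mice 1 to 5, against 3.62, 2.63, 4.83 and 2.48 CPM in vehicle mice 1 to 4. Cotadutide mouse 5 lay just above vehicle mouse 3. Hcar2 rose 2.46-fold (1.30 on the log2 scale, SE 0.35, edgeR adjusted p = 0.0315) and did not pass without vehicle mouse 4 (edgeR adjusted p = 0.0685). Slc16a1, the main monocarboxylate transporter of many tissues, was at 221 ± 17.4 CPM with cotadutide and 186 ± 21.1 CPM with vehicle and did not pass (edgeR adjusted p = 0.0962). Bsg, the chaperone that brings such transporters to the membrane, did not pass with all libraries (log2 fold change 0.60, edgeR adjusted p = 0.163). It rose when vehicle mouse 4 was left out (1.09 on the log2 scale, edgeR adjusted p = 0.000798), a mouse whose 1661 CPM exceeded every cotadutide mouse. Slc16a3, a lactate exporter abundant in glycolytic muscle, did not pass (11.2 ± 5.72 CPM with cotadutide and 27.3 ± 16.9 CPM with vehicle, edgeR adjusted p = 0.0545) but passed with no scaling factor (adjusted p = 0.0463), by DESeq2 (0.0479) and without cotadutide mouse 5 (0.03). Vehicle mouse 4 had 51.7 CPM of Slc16a3, while vehicle mice 1 to 3 had 15.3 to 25.3 CPM, and leaving it out moved the log2 fold change to -0.79 (edgeR adjusted p = 0.179), against -1.29 with it. Slc16a6 and Slc16a7 did not pass, and Ffar3 was at 0 counts throughout, a limit of 0.0377 CPM over the cotadutide libraries and 0.036 over the vehicle libraries.

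On the branch to sterols, which shares acetoacetyl-CoA with Aacs, the 3 genes Hmgcs1, Mvk and Srebf2 did not pass (edgeR adjusted p from 0.0731 to 0.577). Mvk, mevalonate kinase, was at 18.1 ± 1.5 CPM with cotadutide and 15.2 ± 0.99 CPM with vehicle. Hmgcs1 was at 203 ± 49.4 CPM with cotadutide and 234 ± 28.7 CPM with vehicle. Of 10 regulators and acyl import genes 8 were tested and 1 rose (9.31% of all genes tested were called higher). That gene was Slc25a20, the carrier that brings acylcarnitines into mitochondria. It was at 789 ± 56.5 CPM with cotadutide and 642 ± 58.6 CPM with vehicle (log2 fold change 0.30, SE 0.094, edgeR adjusted p = 0.0461). Ppara, a nuclear receptor that drives ketogenic genes in liver, did not pass (60.1 ± 8.39 CPM with cotadutide and 55 ± 15.3 CPM with vehicle, edgeR adjusted p = 0.629). Sirt3, Cpt1a, Cpt1b, Cpt2, Ppargc1a and Insig1 did not pass either, although Cpt2 passed by DESeq2 (adjusted p = 0.0395). Of the Cpt1b exon bases 81.4% are shared with Chkb on the same strand, so its value is uncertain. When vehicle mouse 4 was left out, Cpt1a fell (-0.45 on the log2 scale, edgeR adjusted p = 0.0323) and Cpt2 rose (0.30, edgeR adjusted p = 0.0393), and when cotadutide mouse 1 was left out, Ppargc1a rose (0.51, edgeR adjusted p = 0.0356). Fgf21 and Foxa2 had too few counts to test.

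Which of these 5 calls held depended on the mice included. Leaving out 1 cotadutide mouse cost 1 to 3 of them. None of the 5 passed without vehicle mouse 1 (edgeR adjusted p from 0.0573 to 0.119), without vehicle mouse 2 (0.0543 to 0.147) or without vehicle mouse 3 (0.0500004 to 0.146). Without vehicle mouse 4, all but Hcar2 passed. Their log2 fold changes kept their sign in each of these fits.

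Muscle mRNA moved with the groups, and Bdh1 followed its order in part within them. The 4 vehicle mice had the same order for both, from mouse 1 (20500 CPM of muscle genes and 4.59 CPM of Bdh1) through mice 3 and 2 to mouse 4 (43811 and 6.37 CPM). This was not particular to Bdh1. Aacs had the same order in the vehicle mice (122, 124, 140 and 155 CPM in mice 1, 3, 2 and 4). Oxct1 was also highest in vehicle mouse 4 (380 CPM) but did not keep that order. It was lowest in vehicle mouse 2 (267 CPM), which had 25316 CPM of muscle mRNA. Vehicle mouse 4 had the highest brown adipocyte marker sum of the vehicle mice too (11973 CPM). Among the cotadutide mice, Aacs did not follow muscle mRNA and was lowest in mouse 5 (165 CPM). For muscle mRNA and Bdh1, cotadutide mouse 3 was lowest (4683 and 1.64 CPM) and cotadutide mouse 1 highest (17543 and 5.30 CPM). Mouse 5 had nearly the muscle mRNA of mouse 1 (17516 CPM) but a Bdh1 level of 2.95 CPM, and mouse 4 had more muscle mRNA than mouse 2 (11151 against 8293 CPM) and less Bdh1 (1.76 against 2.56 CPM). With the muscle score, the mean log2 CPM of those 12 genes, as a covariate, the log2 fold change of Bdh1 was -0.07 (SE 0.34), against -0.96 without it, and that of Bdh2 was 0.38 (SE 0.57). Those of Aacs (0.54, SE 0.17), Oxct1 (0.44, SE 0.19) and Acat1 (0.13, SE 0.15) stayed above 0. Since the scores of the groups did not overlap, the treatment and the muscle share cannot be told apart in that fit. It called 0 of 14747 genes by edgeR, with 2034 at an unadjusted p under 0.05. The sum of macrophage markers was lower with cotadutide too, and so was that of white adipocyte markers (mean 234 CPM, against 711.4 CPM with vehicle). That of brown adipocyte markers was higher (mean 13540 CPM, against 9638 CPM with vehicle). The part of any of these sums in the results was not tested.

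**Figure D4:**
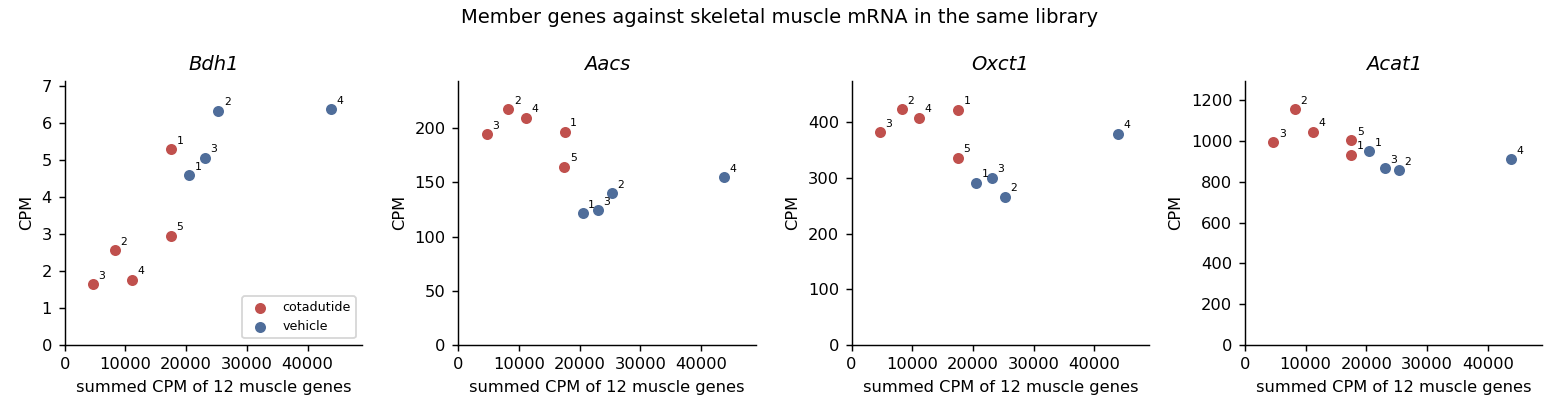
CPM of Bdh1, Aacs, Oxct1 and Acat1 (y axes) against the summed CPM of 12 skeletal muscle genes in the same library (x axes), with cotadutide mice in red, vehicle mice in blue and the mouse number beside each point. Bdh1 is highest in vehicle mouse 4, at 6.37 CPM, and Acat1 and Aacs in cotadutide mouse 2, with 8293 CPM of muscle mRNA. Oxct1 is at 423 CPM both in cotadutide mouse 2 and in cotadutide mouse 1, which has 17543 CPM of muscle mRNA. Among the vehicle mice, Aacs and Oxct1 are highest in mouse 4, as Bdh1 is, and Oxct1 is lowest in mouse 2.

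**Figure D5:**
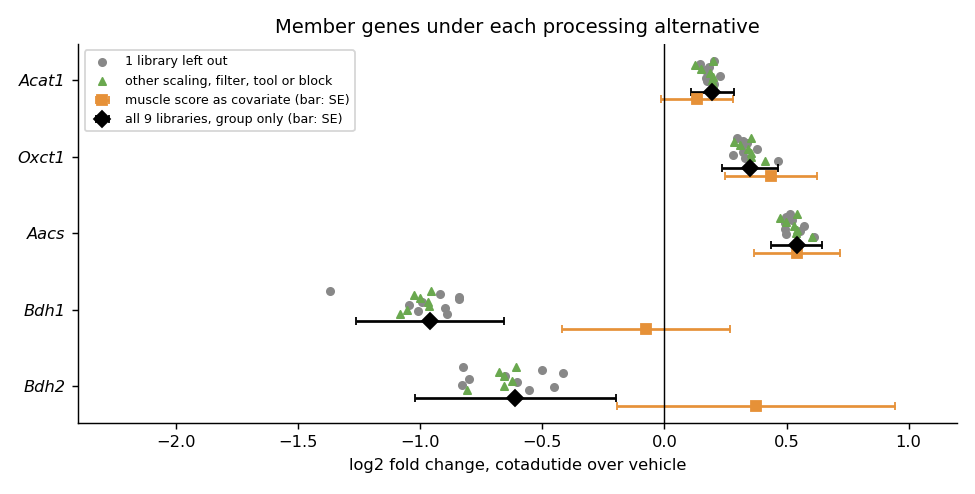
Log2 fold change of cotadutide over vehicle (x axis) of the 5 genes with all libraries (black diamonds with standard error), with 1 library left out (grey circles), with another scaling, filter, tool or the replicate block (green triangles) and with the muscle score as a covariate (orange squares with standard error). Aacs, Oxct1 and Acat1 stay above 0 in every fit, whereas Bdh1 goes to -0.07 and Bdh2 to 0.38 with the muscle score.

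The genes whose pattern over the 9 libraries was most like that of each enzyme were sought among the named genes with a mean of at least 5 CPM, by the root mean square difference of log2 CPM after centring each gene on its mean. For Acat1, whose own values deviated from their mean by 0.129, these were Ghitm (0.0249), Ftsj1 (0.0375) and the medium-chain acyl-CoA dehydrogenase gene Acadm (0.0396). For Oxct1, with an own deviation of 0.237, they were Rhbdd2 (0.0555), Fitm2 (0.0559) and Ddx24 (0.0637). For Aacs, with 0.303, they were Aldh9a1 (0.0578), Ap1m1 (0.0726) and Tha1 (0.0735). Bdh1, with 0.698, was followed less closely, by Ppm1j (0.21), Sbk2 (0.239) and Atp6v0e2 (0.247). Bdh2, with 0.63, was nearest to Col1a2 (0.225), Tmem100 (0.25) and Timp2 (0.251), on a profile that rests on few counts.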

How the data were processed

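Polyadenylated RNA was sequenced from 9 mice, 5 given cotadutide and 4 given vehicle, grouped by the sample titles. The authors deposited raw read counts for Ensembl genes in a separate table for each mouse. Per the submitters' processing notes, the tools were STAR 2.5.2b, Trimmomatic 0.36, bcl2fastq 2.17 and featureCounts (Subread 1.5.2), with build mm10. Settings, strand and annotation release: not given in the sources used here. Of 49315 identifiers, 48970 were matched to a symbol of GENCODE M21, and the others held 0.031% of counts.

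From these counts, genes were filtered with filterByExpr (14747 kept), normalized with TMM factors (0.915 to 1.06) and fitted in R 4.3.3 by edgeR 4.0.16 (robust glmQLFit, then glmQLFTest; group as the only term) at an adjusted p of 0.05. SE is the size of the log2 fold change over the square root of F. Alternatives were other scalings and filters, DESeq2 1.42.0, limma-voom (3.58.1), each library left out, a replicate block and a muscle covariate. On simulated data of 14747 genes with 200 changed, edgeR recovered 0% of 1.25-fold, 22.5% of 1.5-fold and 68.5% of 2-fold changes. It made 10 false calls in the 2-fold run. The data had many more calls (2751), which eases the adjusted threshold, so these shares do not give the power there. Between any 2 libraries chi-square was at least 12.72 per degree of freedom, so each counted as 1 replicate. Limits for 0 counts are 3 counts over the group total and cover counting error only.

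The members and gene lists, the tests and the rule for genes to name were chosen with earlier results of these data known. The rule named the 5 enzymes, the pathway lists, and the 3 genes nearest to each enzyme in centred log2 CPM (prior count 2). Of cell type markers, the sums are given, and Ucp1. Some genes of the pathway lists are not reported here, and the counts leave them out.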

Additional observations from a re-analysis of the deposited data

Results flagged for a closer look

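Among 56 groups of values (28 genes in 2 treatments), 3 held a sample far from the others of its group by Dixon's criterion, about as many as chance gives at 1 in 20. None of the 5 enzymes was among them.

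Ppargc1a in vehicle mouse 4 was 29.9 CPM, while vehicle mice 1 to 3 had 20.03 to 20.9 CPM. That is the vehicle mouse whose library stood apart. Acat2 in cotadutide mouse 2 was 221 CPM, while the other cotadutide mice had 154 to 156 CPM, and without that mouse its log2 fold change was 0.52, against 0.64 with it. Acss2 in cotadutide mouse 5 was 156 CPM, while cotadutide mice 1 to 4 had 117 to 128 CPM.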

How the results depend on the processing

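The 5 enzymes kept the sign of their log2 fold change under the 8 alternatives other than leaving out a library, except Bdh2 with the muscle score (0.38); Bdh1 moved to -0.075 there. Bdh2 could not be fitted under the stricter filter. Leaving out 1 library gave 0.15 to 0.23 for Acat1, 0.28 to 0.46 for Oxct1, 0.49 to 0.61 for Aacs, -1.37 to -0.84 for Bdh1 and -0.83 to -0.42 for Bdh2, and all 5 kept their position in the order by level per length. Genes called numbered 2751 (1373 higher, 1378 lower), and 139 to 3704 without 1 library (42 to 2116 higher, 92 to 1724 lower). Of the pathway genes 5 were called higher and 0 lower, and 0 to 6 higher and 0 to 2 lower without 1 library. With no filter 900 genes and 3 pathway genes were higher. Lower pathway genes numbered 1 with no scaling factor and 2 by DESeq2. With the muscle score as a covariate edgeR called 0 genes, 0 higher and 0 lower, and 0 pathway genes in either direction (2034 genes at an unadjusted p under 0.05). With the mouse number as a replicate block edgeR called 1284 genes (516 higher, 768 lower); Slc25a20 was the only pathway call lost (adjusted p = 0.129). The labels do not say that mice of one number share anything, and the correlations of deviations between mice of the same number were 0.0956, -0.058, 0.0374 and -0.0448, with 1 of 4 closest to its own number. Cotadutide mouse 5 has no vehicle mouse of its number, so under the block it does not inform the difference between the groups. The block also adds terms to the fit. Their parts in the lower number of calls were not tested.

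Among pathway genes that were not called, signs changed for Srebf2 and Cpt1b with no scaling factor (-0.0035 and -0.054), Cpt1b with no filter (-0.032), and Slc16a3, Hmgcs1, Srebf2, Ppara and Cpt1b with the muscle score (0.28, 0.081, -0.027, -0.14 and -0.14). Without 1 library they changed for Cpt1b (-0.098 to 0.091) and Slc16a7 (-0.38 to 0.089). Slc25a20 lost its call with RLE scaling and no filter, and Hcar2 with no filter. Bdh2 had 2 to 19 counts per library and Bdh1 23 to 154, the fewest of the 5 enzymes.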
